A study of Rattus norvegicus with 12 samples.

Results

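The Hox genes of the HoxA, HoxB, HoxC and HoxD clusters were followed in RNA from rat dorsal root ganglia, the paired clusters of sensory neuron cell bodies that lie beside the spinal cord at each body segment. Members were all genes whose symbol is Hox followed by a cluster letter and a number, which gave 37 entries with 35 symbols among 20152 genes, since a symbol can be listed under 2 gene IDs, as Hoxa2 is. The 12 libraries fall into 3 groups of 4: rats given intraperitoneal paclitaxel at 2.0 mg/kg, from a DMSO solution thinned with saline, rats given intraperitoneal oxaliplatin at 2.4 mg/kg in a glucose solution, and rats given vehicle. Both drugs were given to induce peripheral neuropathic pain, and a single vehicle group serves both. The labels do not say which ganglia were taken, at what time, from which strain, age or sex, whether each library is a separate animal, or which vehicle was used. The p-values below therefore measure the spread between libraries, which may be technical.

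Hox genes encode homeodomain transcription factors that give cells their position along the head-to-tail axis. They lie in 4 clusters, and genes at the same place in different clusters form a paralog group, numbered from the head end. In vertebrate embryos low-numbered groups are expressed up to the hindbrain and neck, middle groups up to the forelimb and thoracic levels, group 10 up to the lumbar level, and groups 11 to 13 from the sacral level to the tail. Adult neurons and supporting cells keep much of this code, so the set of Hox genes in a ganglion reflects the segment it came from as well as the state of its cells. The set of ganglia dissected is thus the first thing to compare between groups, because dorsal root ganglion samples can pool several segments.

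Each library held between 17008728 and 17615736 estimated counts, and 4062 to 5027 of them fell on Hox entries. Sensory neuron markers defined the tissue: 10 of 10 (among them Avil, Prph and Isl1) were detected in every library. Their summed level was 2371 to 3049 FPKM (fragments scaled for transcript length and library depth) in paclitaxel libraries, 1832 to 2412 FPKM in oxaliplatin libraries and 2088 to 2405 FPKM in vehicle libraries. The 9 spinal cord markers summed to 7.42 to 9.41 FPKM in paclitaxel libraries, 8.47 to 10.7 FPKM in oxaliplatin libraries and 9.55 to 11.2 FPKM in vehicle libraries. Of these, Slc5a7 (4.44 to 7.72 FPKM), Mog (2.00 to 3.58 FPKM) and Gad1 (0.11 to 1.04 FPKM) were detected in every library, while Mnx1, Chat and Olig2 reached at most 0.03, 0.05 and 0.07 FPKM. In oxaliplatin against paclitaxel, 2 of 10 sensory neuron markers were called lower, and markers called higher numbered 6 of 7 for erythroid cells, 4 of 5 for B cells, 4 of 5 for adipocytes, 4 of 8 for fibroblasts, 3 of 6 for endothelium, 3 of 7 for macrophages and 1 of 4 for skeletal muscle, beside 11.3% of all genes called in either direction. In bulk tissue, fewer cells of a type and less RNA per cell cannot be told apart. Leaving out paclitaxel 4 gave 1631 genes called in paclitaxel against vehicle, against 19 with it.

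The members carried very unequal levels. Hoxd1, which in mouse embryos is found in pain-sensing neurons, was highest, at 20.4 ± 3.34 FPKM (SD, n = 12 libraries). In FPKM as listed, it was followed by Hoxb6 at 9.60 ± 1.64 FPKM, Hoxd8 at 9.30 ± 0.634 FPKM and Hoxb3 at 8.25 ± 1.31 FPKM. Next came Hoxb2 at 6.82 ± 0.906 FPKM and Hoxa7 at 6.77 ± 0.849 FPKM. Hoxd1 was above Hoxb6 in 12 of 12 libraries. Below it the order was soft: of the 27 pairs of neighbours in the order of mean level, 5 differed by more than 1 SD of their difference across libraries. Hoxd8 and Hoxb6, for example, changed places in 6 of 12 libraries. Per cluster, the median entry had 1.03 FPKM in HoxA, 5.41 FPKM in HoxB, 1.63 FPKM in HoxC and 4.72 FPKM in HoxD.

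**Figure D1:**
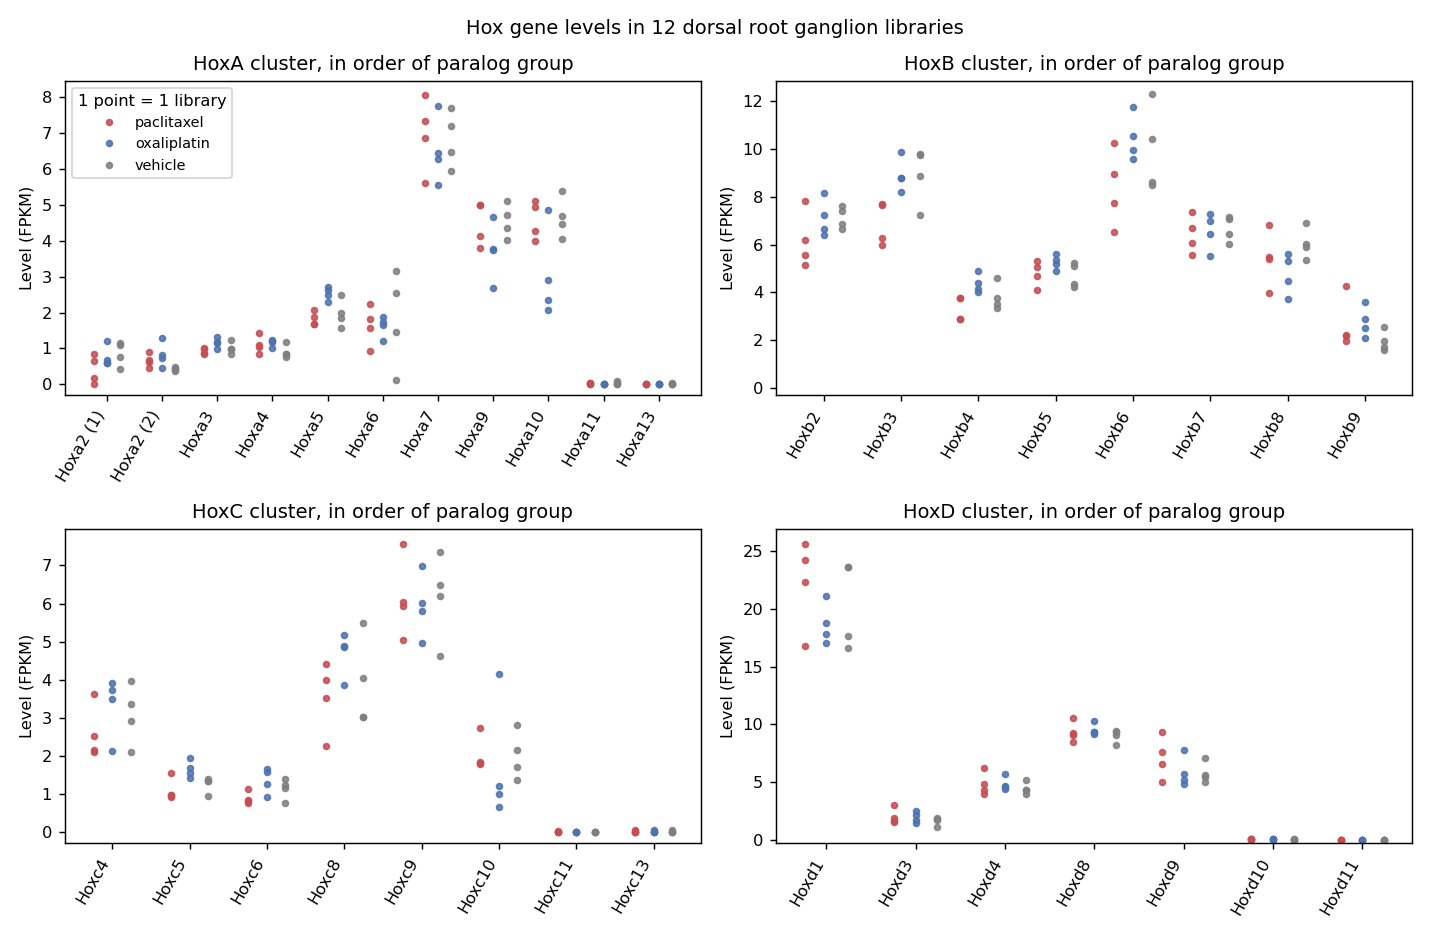
Level in FPKM (vertical axes, linear, with a different range in each panel) of the 28 tested Hox entries and of the untested ones of paralog groups 10 to 13 in every library, with 1 panel per cluster and genes in order of paralog group; paclitaxel, oxaliplatin and vehicle libraries stand left to right at each gene, and (1) and (2) mark the entries with the lower and the higher gene ID. Hoxd1 stands above all other members, and the plotted entries of groups 11 to 13 lie at or near 0, with at most 0.10 FPKM for Hoxa11.

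Levels of HoxA entries need care, because several share their reads with other gene IDs. Hoxa3, Hoxa4, Hoxa5, Hoxa9 and Hoxa10 each have 1 or 2 further IDs with the same count (within 0.01) in at least 11 of 12 libraries, and the paired entries of Hoxa2 divide their reads. Their FPKM understates the gene's total: with matching IDs summed, Hoxa9 would be 12.7 FPKM and Hoxa5 6.33 FPKM, against 4.25 and 2.11 FPKM as listed. Hoxa9 would then stand next after Hoxd1, above Hoxb6, and Hoxa10 would be at 8.18 FPKM against 4.09 FPKM as listed. The order of levels and the HoxA median given above hold for FPKM as listed only. Hoxc6 has the longest listed length of all members, 13082 bases, so 178 to 372 counts per library gave 0.77 to 1.65 FPKM. Whether that length is right for the transcript expressed here was not tested.

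Promoter windows are given for the member of highest level and for the neighbouring pair Hoxa9 and Hoxa10. In FPKM, 3 of 4 oxaliplatin libraries lay below all paclitaxel and vehicle libraries in both, narrowly in Hoxa9, where counts overlapped. The windows come from RefSeq, assembly GRCr8, and run from 250 bases before to 50 bases after the transcription start. The build behind the deposited files is not given in the sources used here, so these coordinates belong to RefSeq alone. Capitals mark the motifs TATAAA and CCAAT on either strand (TTTATA and ATTGG where the match is on the opposite strand). For Hoxa10, RefSeq gives 2 starts, and the one nearer to Hoxa9 is printed.
Hoxd1 (chr3:80072791-80073090, plus strand): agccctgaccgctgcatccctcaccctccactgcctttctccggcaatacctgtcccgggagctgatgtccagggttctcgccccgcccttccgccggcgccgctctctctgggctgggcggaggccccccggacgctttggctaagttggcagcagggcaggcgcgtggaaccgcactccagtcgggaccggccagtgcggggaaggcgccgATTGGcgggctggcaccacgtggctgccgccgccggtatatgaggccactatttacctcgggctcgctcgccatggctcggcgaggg
Hoxa9 (chr4:82656999-82657298, minus strand): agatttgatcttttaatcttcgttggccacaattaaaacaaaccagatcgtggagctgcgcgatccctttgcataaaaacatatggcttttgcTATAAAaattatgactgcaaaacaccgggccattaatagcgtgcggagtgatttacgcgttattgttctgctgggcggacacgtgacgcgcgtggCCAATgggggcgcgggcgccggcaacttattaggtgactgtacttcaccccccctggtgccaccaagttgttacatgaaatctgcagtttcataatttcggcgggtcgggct
Hoxa10 (chr4:82665873-82666172, minus strand): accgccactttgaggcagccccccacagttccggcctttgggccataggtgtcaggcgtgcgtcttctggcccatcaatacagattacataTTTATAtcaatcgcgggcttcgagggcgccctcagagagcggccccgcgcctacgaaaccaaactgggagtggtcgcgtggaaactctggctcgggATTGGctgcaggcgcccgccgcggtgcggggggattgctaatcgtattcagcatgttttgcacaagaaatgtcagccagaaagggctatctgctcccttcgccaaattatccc
The printed Hoxa9 and Hoxa10 windows hold both motifs at nearly the same distance from the start, though on opposite strands. Distances are counted to the edge of the match farther from the transcription start, whichever strand it is on. TATAAA lies 157 bases upstream in Hoxa9 and 159 bases upstream in Hoxa10, and CCAAT 62 and 63 bases upstream. The window of the other Hoxa10 start lacks this likeness, with TATAAA 248 bases upstream and no CCAAT. Hoxd1 holds CCAAT alone, 37 bases upstream. Of the 33469 windows in the table, 14.2% held TATAAA and 37.5% held CCAAT on either strand, and of the 21 windows of Hox genes 4 held TATAAA and 13 held CCAAT. The Pbx-Hox motif TGATTNAT was in 3.18% of all windows and in those of Hoxa2 and Hoxd11 among Hox genes. Hox windows were rich in CG dinucleotides, with a median of 22 per window against 7 over all windows. Of the 35 member symbols, 18 had a window.

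In every library the highest paralog group with a member at 1 FPKM or more was 10. Above it, entries with a Hox symbol were near 0. Those of groups 11 to 13 (Hoxa11, Hoxa13, Hoxc11, Hoxc13 and Hoxd11) together had 1 to 2 counts in paclitaxel libraries. They had 0 to 1 counts in oxaliplatin libraries and 0 to 4 in vehicle libraries. That was at most 0.0899% of the summed Hox FPKM. The summed count was 0 in oxaliplatin 1 and 3 and in vehicle 3 and 4. A count of 0 allows a share of up to 3 counts, which was 0.0597% to 0.0725% of these libraries' Hox counts. These limits cover counting error only. Hoxd10 was also near 0, with at most 3 counts in any library. Hoxb13, Hoxc12, Hoxd12 and Hoxd13 were not listed under these symbols in any of the 12 tables. RefSeq gives Hoxa11 a gene ID other than that of the entry counted here. Of RefSeq's Hox gene IDs, 35 were in the 12 tables and 33 were members, so those under other symbols are missing from these counts. Among members, the highest-numbered genes expressed well above 0 were thus Hoxa10 and Hoxc10 in all 3 groups, genes that in mouse act at the lumbar level. Whether a gene of groups 11 to 13 was expressed under another symbol was not tested.

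The share of summed Hox FPKM that came from groups 10 to 13 was 4.97%, 4.86%, 6.04% and 5.00% in paclitaxel libraries 1 to 4. It was 2.32%, 6.73%, 2.79% and 2.85% in oxaliplatin libraries 1 to 4, and 5.37%, 6.86%, 3.68% and 4.92% in vehicle libraries 1 to 4. Paclitaxel and vehicle libraries overlapped, and oxaliplatin overlapped with them through oxaliplatin 2: oxaliplatin 1, 3 and 4 were below all paclitaxel and vehicle libraries, and oxaliplatin 2 was above all but vehicle 2. Group means were 5.22 ± 0.551% for paclitaxel, 3.67 ± 2.05% for oxaliplatin and 5.21 ± 1.31% for vehicle (SD, n = 4 each). With matching IDs summed, the share was 3.60%, 4.06% and 4.35% in oxaliplatin 1, 3 and 4 and 8.93% in oxaliplatin 2. Paclitaxel and vehicle libraries then lay between 5.66% and 9.69%. No test was run on this share, because it is a score over members chosen with the data known.

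A mean paralog number weighted by FPKM as listed did not set oxaliplatin 1, 3 and 4 apart. It was 5.37, 5.49, 5.55 and 5.61 in paclitaxel libraries, 5.33, 5.69, 5.26 and 5.38 in oxaliplatin libraries and 5.44, 5.64, 5.37 and 5.43 in vehicle libraries. All 3 groups overlapped, with oxaliplatin 4 above paclitaxel 1 and vehicle 3. The span over 12 libraries, 5.26 to 5.69, was less than 1 paralog number. With matching IDs summed, oxaliplatin 1, 3 and 4 were set apart, at 5.50, 5.49 and 5.59. All other libraries were then higher, the lowest being vehicle 3 at 5.64, and the groups overlapped through oxaliplatin 2, at 5.97. Summed Hox level overlapped too, at 129 ± 9.54 FPKM with paclitaxel, 131 ± 8.38 FPKM with oxaliplatin and 132 ± 10.9 FPKM with vehicle (SD, n = 4 each). Groups 1 to 4 held 39.9 ± 1.82%, 40.6 ± 2.13% and 40.2 ± 0.765% of that sum in paclitaxel, oxaliplatin and vehicle libraries.

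**Figure D2:**
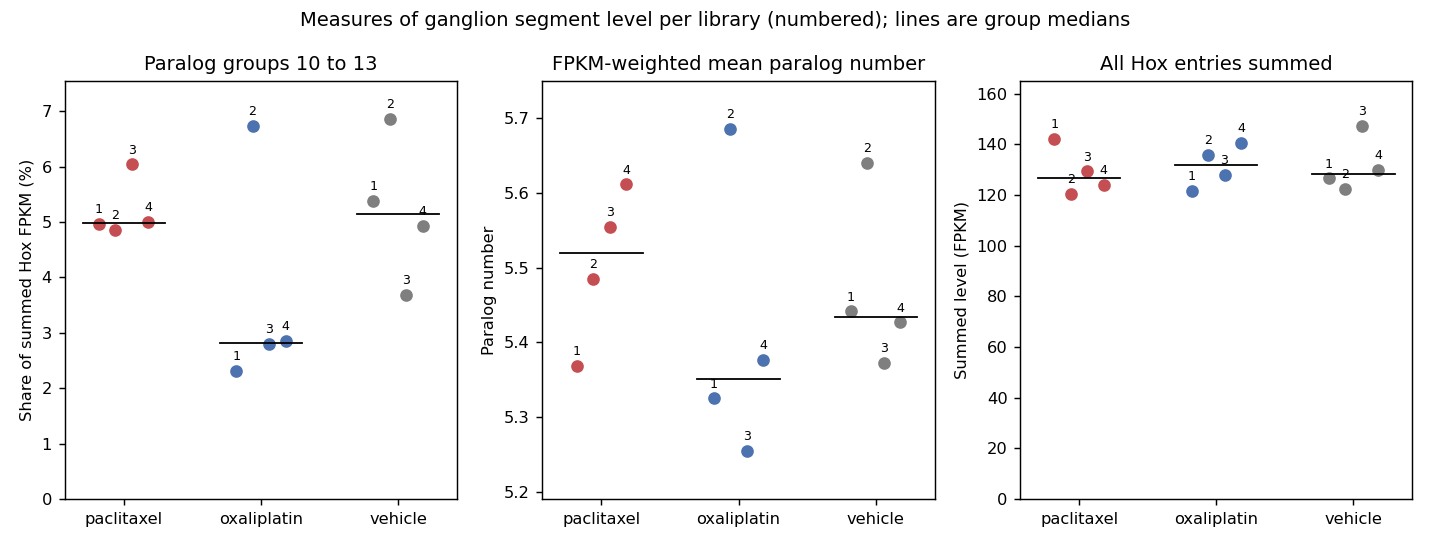
Per library (numbered points, in groups of 4, with the group median as a line): the share of summed Hox FPKM from paralog groups 10 to 13 (left, percent), the FPKM-weighted mean paralog number (middle) and the summed Hox level (right, FPKM). Oxaliplatin 1, 3 and 4 lie between 2.32% and 2.85% on the left, below all other libraries, while oxaliplatin 2 lies at 6.73%; the middle axis does not start at 0.

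Of the 37 entries, 28 passed the filter on low counts and were tested with edgeR's quasi-likelihood test, adjusted by Benjamini-Hochberg over all 15809 genes tested. The other 9 entries, among them Hoxa11, Hoxa13, Hoxb1, Hoxc11, Hoxc13, Hoxd10 and Hoxd11, were too low to test. A gene counts as called at an adjusted p under 0.05. No member was called in paclitaxel against vehicle (0 of 28; 0.12% of all genes tested were called), in oxaliplatin against vehicle (0 of 28; 1.76%) or in oxaliplatin against paclitaxel (0 of 28; 11.3%). A test for any difference among the 3 groups also called 0 of 28, against 6.14% of all genes. Without the adjustment, p was under 0.05 for 0, 3 and 5 of 28 members in these comparisons, against 17.1%, 17.2% and 29.4% of all genes, so members passed no more often than other genes. DESeq2 called 0, 0 and 1 members (1.25%, 4.37% and 13.9% of the 20152 genes entered), and limma voom with quality weights called 2, 0 and 8 (background 14.4%, 3.99% and 30.3%).

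Between paclitaxel and vehicle the members scattered on both sides of 0. The log2 fold change was above 0 for 13 of 28 (47.9% of all genes), with a median of -0.01 beside -0.01 over all genes. FPKM did not separate the groups for any of the 28 members (6.83% of all genes did). The lumbar-level genes showed no difference larger than the spread: Hoxa10 had a log2 fold change of 0.01 ± 0.24 (SE), with a 95% interval of -0.46 to 0.48, and Hoxc10 one of 0.07 ± 0.46, with an interval of -0.83 to 0.97. The widest values belonged to the Hoxa2 entries, at -1.05 ± 0.66 and 0.64 ± 0.30, which share reads and point opposite ways. With both entries summed, Hoxa2 had 1.08 ± 0.240 FPKM in paclitaxel libraries and 1.29 ± 0.316 FPKM in vehicle libraries (SD, n = 4 each), and a log2 fold change of -0.10 ± 0.21. The 2 calls of limma voom in this comparison were these 2 entries.

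In oxaliplatin against vehicle, where no member was called, members were grouped into classes of paralog groups, and the classes were not tested. Medians of the log2 fold change were 0.12 for groups 1 to 4 (11 members), 0.04 for groups 5 to 8 (11 members) and -0.19 for groups 9 and 10 (6 members, 5 below 0), beside 0.01 over all genes. Against paclitaxel the medians were 0.22, 0.06 and -0.32, with 6 of 6 members of groups 9 and 10 below 0, beside 0.00 over all genes. Against vehicle, members of groups 9 and 10 ran from -0.68 for Hoxa10 to 0.46 for Hoxb9. The comparisons with vehicle and with paclitaxel share the oxaliplatin libraries. Over all members, 16 of 28 were above 0 against vehicle (51.7% of all genes) and 13 of 28 against paclitaxel (50.6% of all genes), the second count being 19 of 28 on the log2 FPKM scale. Under 23 other settings, fitted to the same libraries or most of them, the median of groups 9 and 10 stayed below 0 in both. It ran from -0.34 to -0.06 against vehicle and from -0.46 to -0.18 against paclitaxel. On the log2 FPKM scale, 4 of 6 members were lower against vehicle and 5 of 6 against paclitaxel. Without oxaliplatin 1, 3 of 6 were lower against vehicle, where the median was -0.06, and 5 of 6 against paclitaxel.

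**Figure D3:**
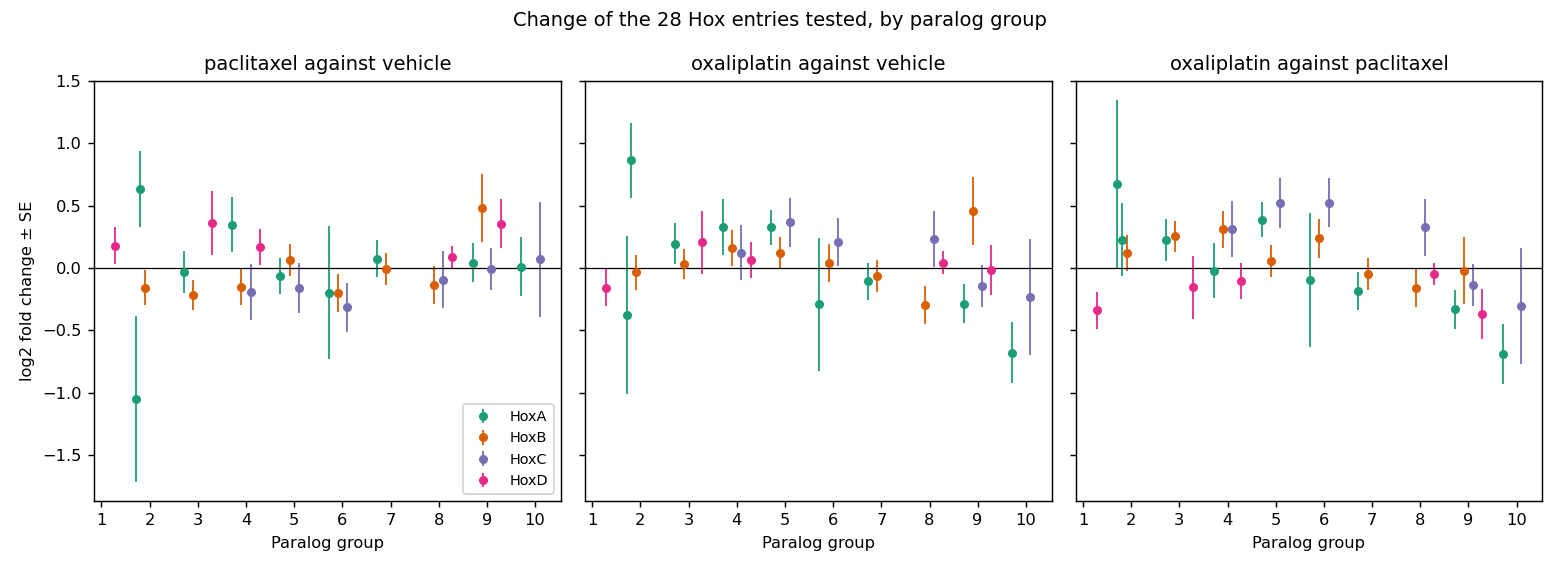
Log2 fold change ± SE (vertical axis) of the 28 tested Hox entries by paralog group (horizontal axis) and cluster (colour), with 1 panel per comparison. In the panels with oxaliplatin, points of groups 9 and 10 lie mostly below 0, with Hoxa10 lowest at -0.68 against vehicle and -0.69 against paclitaxel; no point passed the adjusted threshold.

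Hoxa10, which in mouse helps to set the lumbar level of the spine and hindlimb nerves, had the smallest p among members in oxaliplatin against paclitaxel. Its FPKM was 5.11, 3.98, 4.93 and 4.26 in paclitaxel libraries 1 to 4. In oxaliplatin libraries 1 to 4 it was 2.08, 4.86, 2.34 and 2.90, and in vehicle libraries 1 to 4 it was 4.48, 5.38, 4.05 and 4.70. Oxaliplatin 1, 3 and 4 were below all 8 other libraries, and oxaliplatin 2 lay among them. The log2 fold change was -0.68 ± 0.24 for oxaliplatin against vehicle (edgeR, adjusted p = 0.173) and -0.69 ± 0.24 for oxaliplatin against paclitaxel (edgeR, adjusted p = 0.0814). DESeq2 gave an adjusted p of 0.0361 for the second. Without oxaliplatin 2 the values were -1.05 ± 0.17 (edgeR, adjusted p = 0.0143; 0.972% of all genes called) and -1.06 ± 0.17 (edgeR, adjusted p = 0.00678; 5.65% called), both past the threshold. Leaving out any other single library gave -0.73 to -0.52 against vehicle and -0.76 to -0.53 against paclitaxel, with no call. Without oxaliplatin 1 the values were -0.55 (edgeR, adjusted p = 0.349) and -0.56 (edgeR, adjusted p = 0.167).

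Hoxc10, a lumbar-level gene of mouse motor neurons, repeated this arrangement at a lower level. Its FPKM was 1.79, 1.84, 2.73 and 1.81 in paclitaxel libraries, 0.65, 4.16, 1.20 and 1.00 in oxaliplatin libraries and 2.16, 2.82, 1.36 and 1.70 in vehicle libraries. Oxaliplatin 2 was the highest of 12 and oxaliplatin 1, 3 and 4 the 3 lowest, a ratio of 4.38 between oxaliplatin 2 and the mean of the other 3. The log2 fold change was -0.23 ± 0.46 for oxaliplatin against vehicle (edgeR, adjusted p = 0.844) and -0.30 ± 0.46 against paclitaxel (edgeR, adjusted p = 0.702). With oxaliplatin 2 left out these were -1.12 ± 0.29 (edgeR, adjusted p = 0.0846) and -1.19 ± 0.29 (edgeR, adjusted p = 0.0371). With oxaliplatin 2 and paclitaxel 4 both left out, a setting added after the data were seen, Hoxa10 was called against vehicle (1.99% of all genes called) and Hoxa10 and Hoxc10 against paclitaxel (13.9%). With oxaliplatin 1 left out instead, the difference from vehicle was 0.04, on the other side of 0.

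Members of group 9, which in mouse is tied to thoracic identity, differed among themselves. Hoxa9 had 3.80, 4.12, 4.99 and 4.99 FPKM in paclitaxel libraries, 2.68, 4.67, 3.77 and 3.74 FPKM in oxaliplatin libraries and 4.73, 4.03, 4.35 and 5.12 FPKM in vehicle libraries. In FPKM, oxaliplatin 1, 3 and 4 were again below all vehicle and paclitaxel libraries, though oxaliplatin 3 was barely below paclitaxel 1. Counts did not keep this order: vehicle 2, at 144.87, was below oxaliplatin 3 at 145.67 and oxaliplatin 4 at 146.33. The log2 fold change of Hoxa9 was -0.29 ± 0.16 against vehicle (edgeR, adjusted p = 0.373) and -0.33 ± 0.16 against paclitaxel (edgeR, adjusted p = 0.177). Without oxaliplatin 1 these were -0.16 and -0.21, and without oxaliplatin 2 -0.41 and -0.46, with no call. Against vehicle Hoxb9 had a log2 fold change of 0.46 ± 0.27, Hoxc9 one of -0.14 ± 0.17 and Hoxd9 one of -0.01 ± 0.20. Group 9 as a whole held 15.8 ± 1.399% of summed Hox FPKM in paclitaxel, 13.9 ± 1.34% in oxaliplatin and 14.0 ± 0.759% in vehicle libraries (SD, n = 4 each). Of the 6 members of groups 9 and 10, 5 (Hoxd9 excepted) had oxaliplatin 2 above oxaliplatin 1, 3 and 4, compared with 0 of 11 in groups 1 to 4, 2 of 11 in groups 5 to 8 and 22.1% of all genes tested. That count was taken after oxaliplatin 2 had been seen to stand apart.

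**Figure D4:**
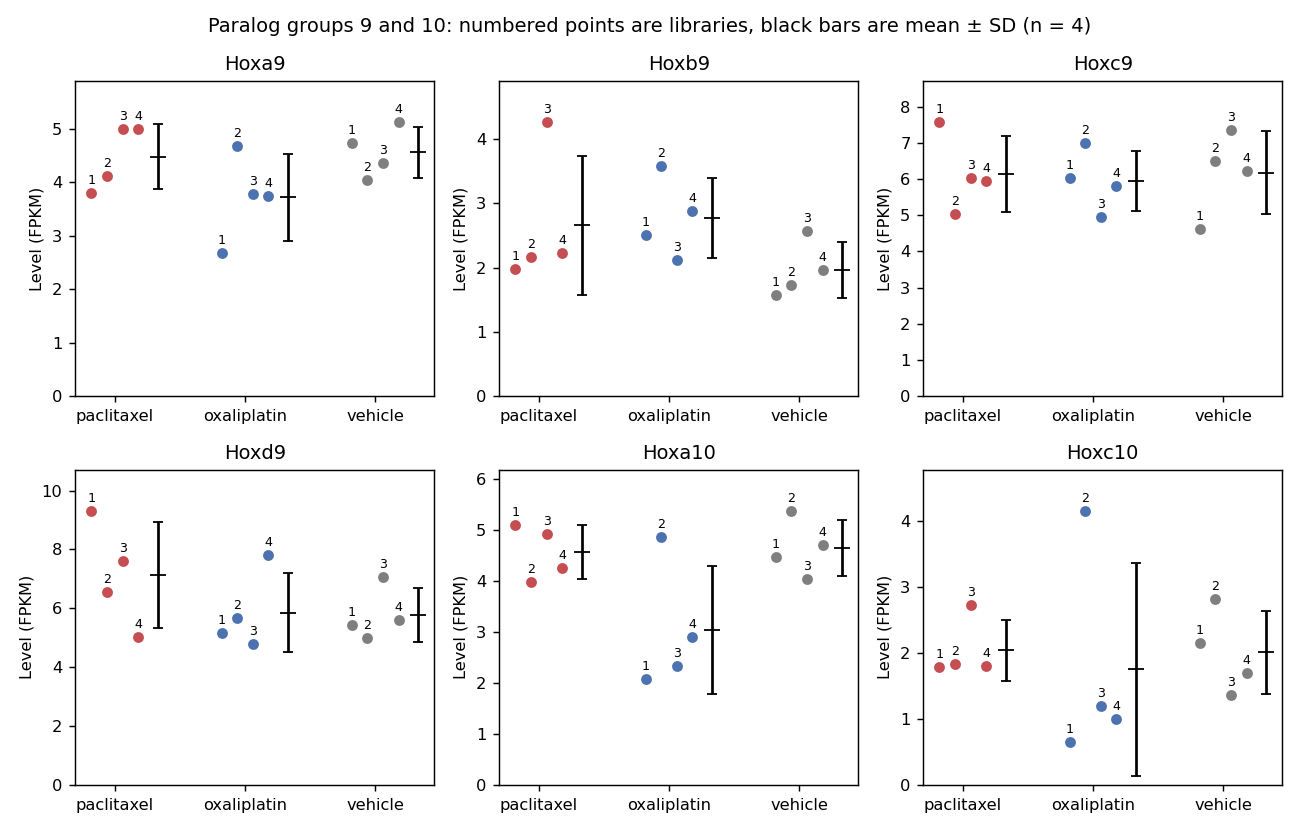
FPKM (vertical axes from 0) of the 6 tested members of paralog groups 9 and 10 in each library (numbered points), with mean ± SD per group of 4 in black. In Hoxa10 and Hoxc10, oxaliplatin libraries 1, 3 and 4 lie at 2.08 to 2.90 and 0.65 to 1.20 FPKM while oxaliplatin 2 lies at 4.86 and 4.16 FPKM.

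Cell type markers also differed between oxaliplatin 2 and the other oxaliplatin libraries. Schwann cell markers summed to 11670 FPKM in oxaliplatin 2, against 7168, 7307 and 6696 FPKM in oxaliplatin 1, 3 and 4. Fibroblast markers summed to 2406 FPKM in oxaliplatin 2, against 1755 to 1982 FPKM. Sensory neuron markers summed to 1832 FPKM in oxaliplatin 2 and to 2314, 1896 and 2412 FPKM in oxaliplatin 1, 3 and 4. In vehicle libraries 1 to 4 Schwann cell markers summed to 7952, 9354, 5403 and 7146 FPKM, the same order of libraries as their share of Hox FPKM from groups 10 to 13. In paclitaxel libraries 1 to 4, at 6311, 7303, 7085 and 7613 FPKM, the order was another one. The orders differed in oxaliplatin libraries too, where oxaliplatin 4 had the lowest Schwann cell sum and oxaliplatin 1 the lowest share. All 7 Schwann cell, 8 fibroblast and 10 sensory neuron markers were detected, and the part of these cell types in the Hox values was not tested. The labels give no ganglion level for any library, so a different set of ganglia and a different state of the same ganglia cannot be told apart.

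In oxaliplatin against paclitaxel, the smallest p-values among members above 0 belonged to Hoxa5, Hoxc6 and Hoxc5, which act at neck, forelimb and thoracic levels. Hoxa5 had 1.87, 1.69, 1.67 and 2.08 FPKM in paclitaxel libraries, 2.48, 2.30, 2.63 and 2.70 FPKM in oxaliplatin libraries and 2.00, 1.56, 2.49 and 1.84 FPKM in vehicle libraries. All 4 oxaliplatin libraries were above all 4 paclitaxel libraries, while vehicle 3 lay within the oxaliplatin range. For Hoxa5 the log2 fold change was 0.33 ± 0.14 for oxaliplatin against vehicle (edgeR, adjusted p = 0.255) and 0.39 ± 0.14 for oxaliplatin against paclitaxel (edgeR, adjusted p = 0.0903).

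Hoxc5 had 0.91, 0.96, 0.96 and 1.54 FPKM in paclitaxel libraries, 1.42, 1.95, 1.56 and 1.69 FPKM in oxaliplatin libraries and 1.34, 1.35, 1.38 and 0.94 FPKM in vehicle libraries. All oxaliplatin libraries were above all vehicle libraries, and paclitaxel 4 lay inside the oxaliplatin range. Hoxc6, which marks forelimb-level motor neurons in mouse and chick, had 0.82, 0.77, 0.83 and 1.12 FPKM in paclitaxel libraries, 0.92, 1.58, 1.65 and 1.25 FPKM in oxaliplatin libraries and 1.23, 1.16, 1.38 and 0.77 FPKM in vehicle libraries. Here the 3 groups overlapped. In oxaliplatin against paclitaxel both had a log2 fold change of 0.52 ± 0.20 (edgeR, adjusted p = 0.1001 for Hoxc5 and 0.0956 for Hoxc6). Without paclitaxel 4 they were 0.72 ± 0.19 and 0.64 ± 0.21 (edgeR, adjusted p = 0.0197 and 0.0434; 21.7% of all genes called), and without oxaliplatin 1 Hoxc6 was 0.66 ± 0.18 (edgeR, adjusted p = 0.0475; 7.73% called).

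Groups that did not overlap in FPKM were no more frequent among members than elsewhere. They numbered 1 of 28 in oxaliplatin against vehicle (Hoxc5; 11.2% of all genes) and 3 of 28 in oxaliplatin against paclitaxel (Hoxa5, Hoxb3 and Hoxb4; 15.1% of all genes). Hoxb3, a hindbrain-level gene, had 7.71, 5.99, 6.30 and 7.66 FPKM in paclitaxel libraries, 8.79, 8.80, 9.88 and 8.20 FPKM in oxaliplatin libraries and 8.89, 9.81, 9.74 and 7.26 FPKM in vehicle libraries. Oxaliplatin and vehicle libraries overlapped, and all paclitaxel libraries were below all oxaliplatin libraries. The whole HoxB cluster summed to 44.1 ± 2.97 FPKM with paclitaxel, 50.2 ± 2.19 FPKM with oxaliplatin and 49.3 ± 4.24 FPKM with vehicle (SD, n = 4 each), and its ranges overlapped in all pairs of groups.

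Hoxd1 differed in the direction opposite to Hoxb3. It had 25.61, 22.35, 24.26 and 16.79 FPKM in paclitaxel libraries, 17.04, 17.79, 18.78 and 21.12 FPKM in oxaliplatin libraries and 17.67, 16.63, 23.60 and 23.62 FPKM in vehicle libraries. Paclitaxel 1 to 3 were above all oxaliplatin libraries and paclitaxel 4 below all of them. The log2 fold change was -0.34 ± 0.15 for oxaliplatin against paclitaxel (edgeR, adjusted p = 0.149), and without paclitaxel 4 it was -0.46 ± 0.13 (edgeR, adjusted p = 0.0231). In the same comparison 10 of 10 sensory neuron markers had log2 fold changes below 0, of which 2 were called, and their part in the value of Hoxd1 was not tested.

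The Hoxa2 entry with gene ID 108348165 had the largest positive value against vehicle. It was at 0.63, 0.89, 0.68 and 0.45 FPKM in paclitaxel libraries, 1.30, 0.72, 0.81 and 0.45 FPKM in oxaliplatin libraries and 0.43, 0.49, 0.43 and 0.37 FPKM in vehicle libraries. Oxaliplatin 4 lay inside the vehicle range. Its log2 fold change was 0.86 ± 0.30 for oxaliplatin against vehicle (edgeR, adjusted p = 0.160), the smallest p among members in that comparison, and 0.54 without oxaliplatin 1 (edgeR, adjusted p = 0.389). Leaving out each other library in turn gave 0.80 to 1.05, with no call. Its partner with ID 103690123 had -0.38 ± 0.64 in the same comparison. Summed, the 2 entries of this hindbrain gene had 1.59 ± 0.455 FPKM in oxaliplatin libraries and 1.29 ± 0.316 FPKM in vehicle libraries (SD, n = 4 each), with a log2 fold change of 0.28 ± 0.21 (edgeR, adjusted p = 0.530).

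The other members of high level had overlapping groups in all 3 comparisons. Hoxb6 had 10.3, 6.54, 8.95 and 7.75 FPKM in paclitaxel libraries, 10.6, 9.58, 9.97 and 11.8 FPKM in oxaliplatin libraries and 10.4, 8.61, 12.3 and 8.51 FPKM in vehicle libraries. Hoxd8 had 8.46, 9.23, 9.09 and 10.5 FPKM in paclitaxel libraries, 9.38, 10.3, 9.34 and 9.15 FPKM in oxaliplatin libraries and 9.38, 9.43, 8.22 and 9.10 FPKM in vehicle libraries. The groups overlapped for both, and Hoxd8 had the lowest coefficient of variation over 12 libraries of the tested members, 0.0682. Hoxb2, another hindbrain-level gene, had 7.84, 5.16, 5.58 and 6.18 FPKM in paclitaxel libraries, 6.66, 7.26, 6.42 and 8.18 FPKM in oxaliplatin libraries and 7.43, 6.64, 7.63 and 6.88 FPKM in vehicle libraries. Hoxa7, a thoracic-level gene, had 8.05, 6.87, 5.62 and 7.35 FPKM in paclitaxel libraries, 5.55, 6.27, 6.45 and 7.75 FPKM in oxaliplatin libraries and 6.47, 5.95, 7.70 and 7.21 FPKM in vehicle libraries. The groups overlapped for these as well.

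The 14 other tested members had mean levels between 1.03 FPKM (Hoxa3) and 6.56 FPKM (Hoxb7) and unadjusted p-values above 0.05 in all 3 comparisons. Hoxa6 was the least steady of the single-ID members in the HoxA cluster, with 0.11 FPKM in vehicle 2 and 3.17 FPKM in vehicle 3, and its estimated counts were not whole in 12 of 12 libraries, as happens where reads are divided between entries. Hoxb9 ran from 1.57 FPKM in vehicle 1 to 4.26 FPKM in paclitaxel 3. Hoxd9, of the same group, ran from 4.80 FPKM in oxaliplatin 3 to 9.31 FPKM in paclitaxel 1. The median coefficient of variation was 0.185 over the 28 members, beside 0.163 over the 10018 genes of the same range of levels.

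Among partners and regulators of Hox genes, 1 gene was called between either drug and vehicle. Genes of the TALE homeodomain proteins (Pbx, Meis and Pknox families), which bind DNA together with Hox proteins, were tested in 9 of 9 cases, with 0 called in either drug against vehicle. Against paclitaxel, oxaliplatin libraries had Meis3 lower, at 15.7 ± 0.736 FPKM in oxaliplatin and 19.6 ± 3.40 FPKM in paclitaxel libraries (SD, n = 4 each; log2 fold change -0.40 ± 0.12, edgeR adjusted p = 0.0465), a call lost in 10 of 12 fits that left out 1 library. Meis3 was 15.6 FPKM in paclitaxel 4 and 18.5 to 23.7 FPKM in paclitaxel 1 to 3. In oxaliplatin against paclitaxel it was the 1 gene of 9 called, beside 11.3% of all genes. Pbx2 was the most abundant, at 20.1 to 23.1 FPKM over all libraries.

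Polycomb proteins keep Hox genes silent, and trithorax proteins and H3K27 demethylases keep them active. Of 17 Polycomb genes tested, 0 were called in either drug against vehicle, and Ezh2, the methyltransferase for H3K27, was called in oxaliplatin against paclitaxel. Ezh2 had 4.42 ± 0.190 FPKM in oxaliplatin and 2.68 ± 0.543 FPKM in paclitaxel libraries (SD, n = 4 each; log2 fold change 0.65 ± 0.13, edgeR adjusted p = 0.00954), and no fit that left out 1 library lost the call. Oxaliplatin libraries, at 4.27 to 4.69 FPKM, were above all others; vehicle libraries lay at 2.92 to 3.44 FPKM. Of 9 trithorax and demethylase genes, 0 were called against vehicle, and Kdm6b (log2 fold change 0.39 ± 0.10, edgeR adjusted p = 0.0258) and Kmt2d (0.43 ± 0.12, edgeR adjusted p = 0.0364) were called higher in oxaliplatin against paclitaxel; these calls were lost in 3 and 6 of 12 fits without 1 library. Calls in that comparison numbered 1 of 17 Polycomb genes and 2 of 9 genes of the second list, beside 11.3% of all genes. Medians of the log2 fold change in that comparison were 0.11 for Polycomb genes and 0.13 for the second list, beside 0.00 over all genes.

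Retinoic acid switches on low-numbered Hox genes in the embryo. Of 15 tested genes of retinoid synthesis, binding and reception, 0 were called in paclitaxel against vehicle, 1 in oxaliplatin against vehicle and 3 in oxaliplatin against paclitaxel, all higher, beside 0.12%, 1.76% and 11.3% of all genes called in either direction. Rarg, a retinoic acid receptor, had 18.3 ± 1.14 FPKM in oxaliplatin libraries and 12.9 ± 1.87 FPKM in vehicle libraries (SD, n = 4 each). Its log2 fold change was 0.46 ± 0.11 against vehicle (edgeR, adjusted p = 0.0441), a call lost in 9 of 12 fits without 1 library, and 0.64 ± 0.11 against paclitaxel (edgeR, adjusted p = 0.00537), lost in none. Aldh1a3, which makes retinoic acid, had 5.87 ± 0.847 FPKM in oxaliplatin and 2.10 ± 0.648 FPKM in paclitaxel libraries (SD, n = 4 each; log2 fold change 1.41 ± 0.31, edgeR adjusted p = 0.0145). Rxra, the partner receptor, had a log2 fold change of 0.44 ± 0.11 against paclitaxel (edgeR, adjusted p = 0.0269), a call lost in 5 of 12 fits without 1 library. The median of the list was 0.19 against vehicle and 0.35 against paclitaxel, where 15 of 15 genes lay above 0 (50.6% of all genes did), and fibroblast and endothelial markers lay above 0 in 8 of 8 and 6 of 6 in that comparison, whose part was not tested.

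Genes that set axial level upstream of Hox in the embryo were nearly silent. Cdx1 reached at most 0.21 FPKM, and Cdx2, Cdx4 and Evx1 at most 0.04 FPKM each. Tbx4, a hindlimb gene, reached at most 0.18 FPKM. The exception was Gdf11, a signal for the trunk-to-tail transition, with 8.49 to 11.04 FPKM in the 12 libraries and no call in any comparison.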

How the data were processed

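RNA from frozen dorsal root ganglia of 12 rat libraries was taken up in Trizol, and libraries came from a BGISEQ-500 kit according to the labels. The deposited tables hold, per library, the authors' estimated count per gene (an expected count, which need not be whole), and the authors' FPKM, scaled for length and depth. CASAVA 1.4 and Bowtie2 are named in the submitters' processing notes; the quantifier, annotation and build are not given in the sources used here, and strand use in counting is not stated. FPKM was used for levels and shares. Counts were rounded to whole numbers and tested with edgeR 4.0.16 (R 4.3.3): TMM scaling, filterByExpr, a quasi-likelihood fit of 3 group means over 12 libraries, and Benjamini-Hochberg adjustment over 15809 genes at 0.05. Intervals are the fold change with its 95% normal range. DESeq2 1.42.0, limma 3.58.1 (voom with quality weights, and log2 of FPKM plus 1 or 0.1), other filters, a replicate block and leaving out each library were alternatives. The procedure was tested on simulated data. Depth was 17008728 to 17615736 counts per library. Per-library values are given for members with an unadjusted p under 0.05 in any comparison and for the 6 of highest mean FPKM. They are also given for every member of groups 10 to 13 listed in 12 libraries. Hoxa9 and Hoxa2 summed were chosen after their values were seen. The members and lists were chosen with earlier results of these data known. Values of some members are not reported here.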

Additional observations from a re-analysis of the deposited data

Results flagged for a closer look

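In groups of 4 libraries, 7 of the 90 sets of Hox values examined had a library whose gap to its nearest neighbour was larger, as a part of the range, than Dixon's 95% critical value; chance gives about 1 in 20. Oxaliplatin 2 was set apart by Hoxc10, at 4.16 FPKM, and by its share of Hox FPKM from groups 10 to 13, at 6.73%. Paclitaxel 3 was set apart on the high side by Hoxb9, at 4.26 FPKM, by Hoxc10, at 2.73 FPKM, and by the same share, at 6.04%. Hoxc5 was high in paclitaxel 4, at 1.54 FPKM, and low in vehicle 4, at 0.94 FPKM.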

How the results depend on the processing

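The count of Hox genes called, 0 in each comparison, was 2 in paclitaxel against vehicle under limma voom (the Hoxa2 entries, in opposite directions; 14.4% of all genes called). In oxaliplatin against paclitaxel it was 1 under DESeq2 (Hoxa10; 13.9% of all genes) and 8 under limma voom (30.3%). For any difference among the groups it was 8 of 28 under limma voom, beside 5085 of all 15809 genes. Leaving out 1 library gave 0 to 1 in oxaliplatin against vehicle, 0 to 3 in oxaliplatin against paclitaxel and 0 to 2 for any difference. Leaving out oxaliplatin 2 and paclitaxel 4 together, a setting chosen after seeing the data, gave 1, 2 and 2. Over all 15908 genes tested in that setting, 317, 2211 and 2410 were called. Counting groups 9 to 13 as posterior gave a share difference of 1.79 percentage points for paclitaxel minus vehicle and -3.47 for oxaliplatin minus paclitaxel. Without Hoxd1 the difference in weighted mean paralog number was 0.16 and -0.30 in these comparisons. The log2 fold change of Hoxc10 in oxaliplatin against vehicle ran from -1.12 without oxaliplatin 2 to 0.036 without oxaliplatin 1. The cause was not tested in any of these. Replicate numbers did not pair the libraries (correlations from -0.23 to 0.16), and a fit with the replicate block called 0 Hox genes in every comparison. Over all genes, leaving out 1 library gave 10 to 1631, 49 to 357 and 571 to 3463 calls in paclitaxel against vehicle, oxaliplatin against vehicle and oxaliplatin against paclitaxel. For any difference among the groups it gave 304 to 3292 calls. Hoxc10, with 21 to 132 counts per library, had an SE of 0.46 against vehicle, and of 0.29 without oxaliplatin 2.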
